A study of Rattus norvegicus with 12 samples.

Results

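Ace, Agtr1a, Klk1, Ptger1 and Ptgs2, 5 genes of the angiotensin, kallikrein-kinin and prostaglandin systems, were examined in rat fetal kidney. They were taken by gene symbol, and each had 1 transcript cluster (the set of probes that reads 1 transcript) among the 14557 genes with a name of their own and the 36685 clusters on the array. The pools came from rat fetuses at 19 days of gestation, 6 from mothers kept under 12 h of light and 12 h of dark throughout gestation (LD) and 6 from mothers under chronic photoperiod shifting (CPS), in which the lighting was completely reversed again and again during pregnancy before a return to the regular schedule. The mothers were 70 to 80 days old when mated, neither group received an agent or carried an engineered allele, and each pool joined kidneys of 6 fetuses, not separated by sex, and is read here as 1 mother. The protocol gives 8 h as the clock time of dissection and another field of the sample labels gives 20 h, in both groups. Values are log2 signals of whole-transcript arrays, and a difference is CPS minus LD on that scale. Since a pool is bulk tissue, fewer cells of a type and less RNA per cell cannot be told apart.

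The angiotensin system makes angiotensin II in steps from angiotensinogen. Angiotensin-converting enzyme (Ace) trims angiotensin I to angiotensin II, which acts mainly through the type 1 receptor (Agtr1a and Agtr1b in rodents). Tissue kallikrein (Klk1), made in the distal nephron, releases kinins from kininogens, and Ace also breaks kinins down. Cyclooxygenase-2 (Ptgs2), known in kidney from the macula densa and the medullary interstitium, commits arachidonic acid to prostaglandins, and Ptger1 encodes the EP1 receptor of prostaglandin E2, found in the collecting duct. In rodents, loss of angiotensin signalling or of cyclooxygenase-2 disturbs the late growth of the kidney.

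The promoters of 4 members are given because Ace with Agtr1a, and Klk1 with Ptgs2, were the pairs whose levels correlated most over the pools, as described further on. All 5 members matched the RefSeq promoter table (GRCr8), which spans 250 bases before to 50 after each start, and Ptger1 at chr19:41378235-41378534, minus strand, is not printed. Ace lies at chr10:91409879-91410178 on the plus strand, Agtr1a at chr17:34435383-34435682 on the minus strand, Klk1 at chr1:103778902-103779201 on the plus strand and Ptgs2 at chr13:64713813-64714112 on the plus strand. Each is written 5′ to 3′ in the direction of the gene, and capitals mark the E-box CACGTG, the TATA box TATAAA and the nuclear receptor half-site AGGTCA, on either strand.
Ace: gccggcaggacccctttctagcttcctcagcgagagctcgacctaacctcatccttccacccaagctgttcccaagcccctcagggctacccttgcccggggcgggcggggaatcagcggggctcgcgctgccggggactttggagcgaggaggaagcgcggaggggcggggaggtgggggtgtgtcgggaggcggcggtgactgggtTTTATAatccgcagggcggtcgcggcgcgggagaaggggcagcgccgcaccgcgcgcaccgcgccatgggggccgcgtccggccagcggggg
Agtr1a: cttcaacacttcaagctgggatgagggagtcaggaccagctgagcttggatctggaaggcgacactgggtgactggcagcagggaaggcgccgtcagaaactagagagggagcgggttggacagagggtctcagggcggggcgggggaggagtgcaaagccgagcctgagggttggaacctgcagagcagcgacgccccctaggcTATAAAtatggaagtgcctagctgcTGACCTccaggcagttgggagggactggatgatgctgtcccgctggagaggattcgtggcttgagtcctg
Klk1: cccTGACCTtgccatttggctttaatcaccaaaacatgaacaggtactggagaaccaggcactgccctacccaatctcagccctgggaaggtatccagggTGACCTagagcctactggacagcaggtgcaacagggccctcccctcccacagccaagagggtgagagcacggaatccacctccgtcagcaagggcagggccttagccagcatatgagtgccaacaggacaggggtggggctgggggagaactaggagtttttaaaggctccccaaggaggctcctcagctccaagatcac
Ptgs2: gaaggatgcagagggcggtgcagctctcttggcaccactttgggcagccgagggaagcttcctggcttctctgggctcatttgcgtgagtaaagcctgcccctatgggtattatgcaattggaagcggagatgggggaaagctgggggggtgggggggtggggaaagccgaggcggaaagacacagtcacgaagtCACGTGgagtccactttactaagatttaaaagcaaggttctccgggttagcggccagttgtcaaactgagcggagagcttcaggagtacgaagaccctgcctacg

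The E-box, the motif that the CLOCK and BMAL1 proteins bind, is held by 6.42% of 33469 rat promoters of the same length and, among the members, by that of Ptgs2 alone, with its first base at -55 from the start. A TATA box, in 14.2% of promoters, is at -42 on the opposite strand of Ace and at -45 in Agtr1a. The half-site, in 16.2% of promoters, is at -20 in Agtr1a and at -247 and -150 in Klk1, each time on the opposite strand. The GC box GGGCGG, in 33.1% of promoters and left in lower case, occurs 4 times in Ace, 2 times in Agtr1a and 1 time each in Ptger1 and Ptgs2. No window of a member holds the D-box TTANGTAA, the cyclic AMP element TGACGTCA or the palindromic glucocorticoid element, which are in 2.24%, 1.83% and 0.439% of promoters. Motifs were searched on both strands, no marked motif overlaps another, and a match of letters is a description, not a site in use.

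Array medians were 3.31 to 3.50. As a guide to dim signal, 1243 olfactory and vomeronasal receptor genes had a median of 1.72, and 2.66 was their 95th percentile. Markers of kidney were clearly present, with means of 5.73 to 6.57 over 9 of 14 proximal tubule genes and 6.55 to 6.97 over 12 of 14 collecting duct genes. RNA of neighbouring tissues varied between pools. The mean of 13 of 17 liver markers was 4.30 to 6.62 in LD and 4.81 to 7.01 in CPS, highest in LD replicate 6 and CPS replicate 2. The mean of 9 of 15 adrenal cortex markers, 3 of them at the dim level, was 2.94 to 3.31 in LD and 3.02 to 3.85 in CPS. At an unadjusted limma p under 0.05, 5 of the 9 were higher in CPS, against 4.72% of all named genes in either direction. The 5 include Cyp11b1, which is at the dim level, and Akr1b7, which is also counted below with the prostaglandin genes. In CPS replicate 1 alone, the pancreas acini mean (8 of 10 genes, 3 at the dim level) was 4.66 against at most 3.29 elsewhere, and the skeletal muscle mean (7 of 11 genes, none at the dim level) was 7.41 against at most 5.96.

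Of the 5 members, Ace and Ptger1 were higher in CPS at an unadjusted limma p under 0.05, the threshold used in the study. Agtr1a, Klk1 and Ptgs2 did not pass it. By the same threshold, 4.72% of all named genes (687 of 14557) were called, 2.94% higher and 1.78% lower, and 5.3% of all clusters (1946 of 36685), 2.38% higher and 2.93% lower. After Benjamini-Hochberg adjustment over all clusters limma called 0 of 36685 (lowest adjusted p 0.887). The unpaired one-way test of the methods called 2020 unadjusted and 0 adjusted, and at the same threshold it called none of the 5 members (p of 0.0583 for Ace and 0.0538 for Ptger1). The members had adjusted limma p of 0.887 to 0.939.

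**Figure D1:**
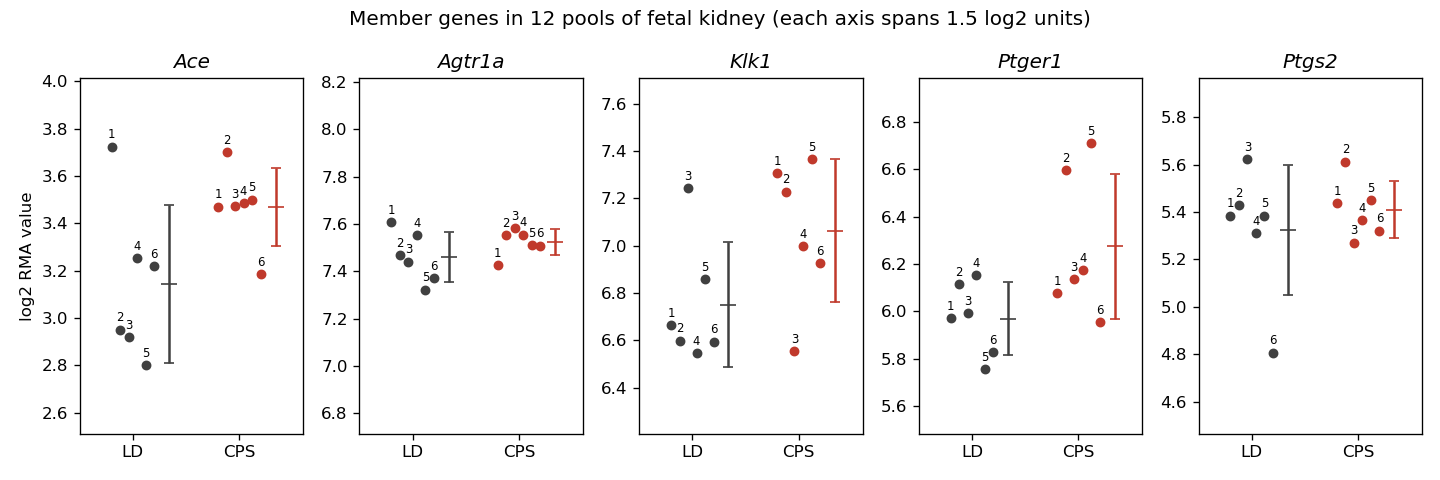
The plot shows the log2 value of each member in the 6 LD and 6 CPS pools, 1 point a pool, with the mean and SD of each group beside the points. Every axis spans 1.5 log2 units around the gene, and the LD and CPS pools of all 5 genes overlap. In Ace 3 LD pools lie under all CPS pools, and in Ptger1 3 CPS pools lie above all LD pools.

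Ace, which makes angiotensin II and degrades kinins, was higher in CPS. Its signal was low: its mean stood at percentile 35.3 of the named genes, and its lowest LD pool was near the dim level of 2.66. The LD pools had a lowest, median and highest value of 2.80, 3.08 and 3.72, and the CPS pools of 3.18, 3.48 and 3.70. All 6 CPS pools lay above the LD median and 3 LD pools lay under every CPS pool, while LD replicate 1 had the highest value of all 12. The LD mean was 3.14 ± 0.33 and the CPS mean 3.47 ± 0.16 (SD, n = 6 in either group). The difference was 0.33 with an SE of 0.15 and a 95% interval of 0.01 to 0.64, a fold of 1.25 (1.01 to 1.56), with a limma p of 0.0445 and an exact permutation p of 0.0714 (two-sided). Among 1389 genes of similar level, its spread within groups stood at percentile 45.7. Without LD replicate 1 the difference was 0.44 with a limma p of 0.00200, and 9 of the 12 fits that left out a pool lost the call. With the liver and adrenal cortex means as covariates it was 0.22 (limma p of 0.252), and the part of those tissues in it was not tested further.

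Agtr1a, the type 1 angiotensin II receptor through which most pressor and growth actions of the peptide run, differed little. Its lowest, median and highest values were 7.32, 7.45 and 7.61 in LD and 7.43, 7.53 and 7.58 in CPS. The CPS pools lay wholly inside the LD range. The means were 7.46 ± 0.11 and 7.52 ± 0.06 (SD, n = 6 each), and the difference of 0.06 had an SE of 0.07 and an interval of -0.08 to 0.20, a fold of 1.04 (0.95 to 1.15), with a limma p of 0.361 and an exact permutation p of 0.225. Its residual SD was 0.08, at percentile 11.6 among 2005 genes of similar level, and no fit that left out a pool called it.

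The partners of these genes in the angiotensin system were mixed. Agt, the angiotensinogen from which all angiotensins come, had means of 2.89 ± 0.29 in LD and 3.01 ± 0.31 in CPS, close to the dim level, and did not pass (difference 0.12, exact permutation p of 0.498). Agtr1b, the other type 1 receptor of rodents, and Agtr2, the type 2 receptor that fetal tissues are known for, had differences of -0.01 and -0.03 with exact permutation p of 0.924 and 0.723, and both change sign when each array is centred on its median. Agtrap, which encodes a protein that binds the type 1 receptor and promotes its internalization, was higher in CPS. Its lowest, median and highest values were 7.10, 7.21 and 7.48 in LD and 7.24, 7.54 and 7.70 in CPS, with 5 CPS pools above every LD pool. The difference was 0.25 with an SE of 0.10, a limma p of 0.0226 and an exact permutation p of 0.0152, lost without LD replicate 1 or CPS replicate 2. Mas1, the receptor of angiotensin-(1-7), was called higher by 0.25 (exact permutation p of 0.0346), with means of 2.33 and 2.58 under the dim level of 2.66. That call was lost in 6 of the 12 fits without a pool and with an intensity trend and robust spread (limma p of 0.0570).

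In the list of angiotensin peptidases 11 of 17 genes were measured. Of these 2 were called higher, Ace and Nln, and 0 lower, where 4.72% of named genes were called. The median difference was 0.09, that of Preb, a listed gene that does not encode a peptidase. Nln, neurolysin, a peptidase that cuts angiotensins and kinins, had means of 6.54 ± 0.14 in LD and 6.72 ± 0.09 in CPS and differed by 0.17 (limma p of 0.0475, exact permutation p of 0.0368), a call lost in 9 of the 12 fits without a pool. Mme, neprilysin of the brush border, had means of 8.31 ± 0.27 and 8.49 ± 0.14 and did not pass (exact permutation p of 0.201). Atp6ap2, an accessory protein of the vacuolar proton pump, differed by 0.07 (exact permutation p of 0.303).

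Klk1, the kidney's main kinin-releasing enzyme, did not pass the test, though its difference was of the size of that in Ace. The lowest, median and highest values were 6.55, 6.63 and 7.24 in LD and 6.56, 7.11 and 7.37 in CPS. The groups overlapped across most of their range: LD replicate 3 reached 7.24 and CPS replicate 3 was at 6.56, and 2 CPS pools were above all of LD. The means were 6.75 ± 0.26 and 7.06 ± 0.30 (SD, n = 6 each), and the difference was 0.31 with an SE of 0.16 and an interval of -0.03 to 0.65, a fold of 1.24 (0.98 to 1.57), a limma p of 0.0671 and an exact permutation p of 0.0779. Its spread within groups was at percentile 98.2 among 1996 genes of similar level. Leaving out LD replicate 3 or CPS replicate 3 gave 0.41 in each case, with limma p of 0.0133 and 0.0117. Pancreas also makes tissue kallikrein, and in CPS replicate 1, the pool with the high pancreas acini mean of 4.66, Klk1 was 7.31. Without that pool the difference was 0.26 (limma p of 0.134). Without CPS replicate 5, the pool with the lowest pancreas acini mean (2.69), it was 0.25 (limma p of 0.142). Over the 12 pools Klk1 and the pancreas acini mean had r = 0.30 (permutation p of 0.453, 0.709 adjusted over 80 relations). The rho was -0.12 (permutation p of 0.716, 0.899 adjusted), and r was -0.14 without the 2 pools farthest out. The part of pancreas RNA in the difference was not tested further.

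The Klk1 subfamily holds 10 symbols on the chromosome of Klk1, and 9 were measured. They are related copies, so their probes may share signal and which copy varied is uncertain. Of the 8 others measured, 4 were above 0 and 4 below, and none passed. They ran from -0.07 in Klk1c12 to 0.19 in Klk1b3, with exact permutation p of 0.647 and 0.201. These genes were chosen by family after the values were known. Of 19 of 23 measured kallikreins none was called, where 4.72% of named genes were, and 11 were at or under the dim level.

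Around the kinins, 1 of 7 measured genes for kininogens, receptors and inhibitors (10 listed) and 2 of 8 kinin-degrading peptidases (11 listed) were called higher, and 0 lower, against 4.72% of named genes called. Ace is among these peptidases and was already counted with the angiotensin peptidases. F12, the coagulation factor that activates plasma kallikrein, was higher by 0.28 (2.40 ± 0.20 in LD and 2.68 ± 0.14 in CPS, limma p of 0.0178 and exact permutation p of 0.0238), at about the dim level. With the liver and adrenal means as covariates the difference was 0.27 and no longer passed (limma p of 0.0828). Xpnpep2, membrane aminopeptidase P, which inactivates bradykinin, had a lowest, median and highest value of 2.92, 3.71 and 3.96 in LD and 3.76, 4.14 and 4.48 in CPS. The difference of 0.51 (SE 0.17) had a limma p of 0.0125 and an exact permutation p of 0.0152, with 4 CPS pools above every LD pool, and it held in all fits that left out a pool. With the liver and adrenal covariates it was 0.41 (limma p of 0.0901). The kinin receptors Bdkrb1 and Bdkrb2 differed by 0.14 and 0.04, and Klkb1, plasma kallikrein, by 0.14, with exact permutation p of 0.279, 0.773 and 0.323. Kng1 was not analysed here.

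Ptgs2, the inducible cyclooxygenase, did not differ beyond its spread. The lowest, median and highest values were 4.81, 5.38 and 5.62 in LD and 5.27, 5.40 and 5.61 in CPS. LD replicate 6 stood lowest and the other 11 pools lay between 5.27 and 5.62. The means were 5.32 ± 0.27 and 5.41 ± 0.12 (SD, n = 6 each), and the difference was 0.09 with an SE of 0.12 and an interval of -0.18 to 0.35, a fold of 1.06 (0.89 to 1.27), a limma p of 0.485 and an exact permutation p of 0.593. Without LD replicate 6 it was -0.02, so that 1 pool set its direction. Over 12 immediate early genes, a class whose rapid induction Ptgs2 shares, the mean was 5.18 to 5.37 in LD and 5.15 to 5.33 in CPS, and 1 of them, Dusp1, was called lower (-0.22, limma p of 0.0336). The correlation of Ptgs2 with this mean over the 12 pools did not pass after adjustment (r = -0.59, permutation p of 0.035 and 0.181 adjusted over 80 relations, rho = -0.25, permutation p of 0.432 and 0.778 adjusted), with r of -0.55 without the 2 farthest, -0.93 within LD and -0.05 within CPS.

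In the synthesis of prostaglandins 2 of 17 measured genes (20 listed) were called higher and 0 lower, where 4.72% of named genes were called. Hpgds, haematopoietic prostaglandin D synthase, was at 5.32 ± 0.23 in LD and 5.53 ± 0.05 in CPS (limma p of 0.0454, exact permutation p of 0.0541), a call lost in 10 of the 12 fits that left out a pool. Akr1b7, an aldo-keto reductase with prostaglandin F synthase activity, had means of 2.24 ± 0.20 and 3.10 ± 0.93 and a limma p of 0.0309 with an exact permutation p of 0.0606. The call was lost in 5 of the 12 fits that left out a pool and with the methods' test beside limma (p of 0.0509). It is also a gene of the adrenal cortex and belongs to that marker list. With the liver and adrenal covariates its difference was 0.02 (limma p of 0.918). The adrenal mean includes Akr1b7 itself, so this fit takes out part of the gene's own signal. Ptgs1, the constitutive cyclooxygenase, and Pla2g4a, the phospholipase that frees arachidonic acid, differed by 0.03 and -0.08, with exact permutation p of 0.762 and 0.392. Ptges and Ptgis were not analysed here.

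Ptger1, the EP1 receptor, was higher in CPS. Its lowest, median and highest values were 5.76, 5.98 and 6.15 in LD and 5.96, 6.16 and 6.71 in CPS. The CPS pools 2 and 5 were highest, at 6.60 and 6.71, while the other 4 lay between 5.96 and 6.17. The means were 5.97 ± 0.16 and 6.28 ± 0.31 (SD, n = 6 each), and the difference was 0.31 with an SE of 0.13 and an interval of 0.01 to 0.60, a fold of 1.24 (1.01 to 1.51), a limma p of 0.0424 and an exact permutation p of 0.0541. Among 1704 genes of similar level its spread within groups was at percentile 89.3. Without CPS replicate 5 the difference was 0.22 and without CPS replicate 2 it was 0.24, the call being lost both times, as in 4 of the 6 fits that left out an LD pool.

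Ptger1 moved together with cell type markers in the same pools. Over 12 pools its value correlated with the mean of 7 of 11 thick ascending limb and macula densa genes (r = 0.95, permutation p of 8e-05, 0.0032 after adjustment over 80 relations, and rho = 0.84, permutation p of 0.00113 and 0.0437 adjusted). Without the 2 pools farthest out r was 0.76, and within LD and CPS it was 0.83 and 0.99. With the mean of 11 of 13 endothelial genes r was 0.90 (permutation p of 3e-05, adjusted 0.0024) and rho was 0.92 (permutation p of 0.0001, adjusted 0.008), with r of 0.80 without the 2 farthest and 0.94 within each group. For 12 of 14 collecting duct genes r was 0.75 (permutation p of 0.00083, adjusted 0.0221) and rho was 0.83 (permutation p of 0.00164, adjusted 0.0437), with r of 0.65 without the 2 farthest, 0.60 in LD and 0.72 in CPS. None of these markers was at the dim level. The thick ascending limb mean was 4.61 to 4.87 in LD and 4.69 to 5.11 in CPS, highest in CPS pools 5 and 2, and 1 of its 7 genes, Pappa2, was called. With this mean as covariate the Ptger1 difference was 0.13 (limma p of 0.0893), and the part of tubule content in it was not tested further.

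**Figure D2:**
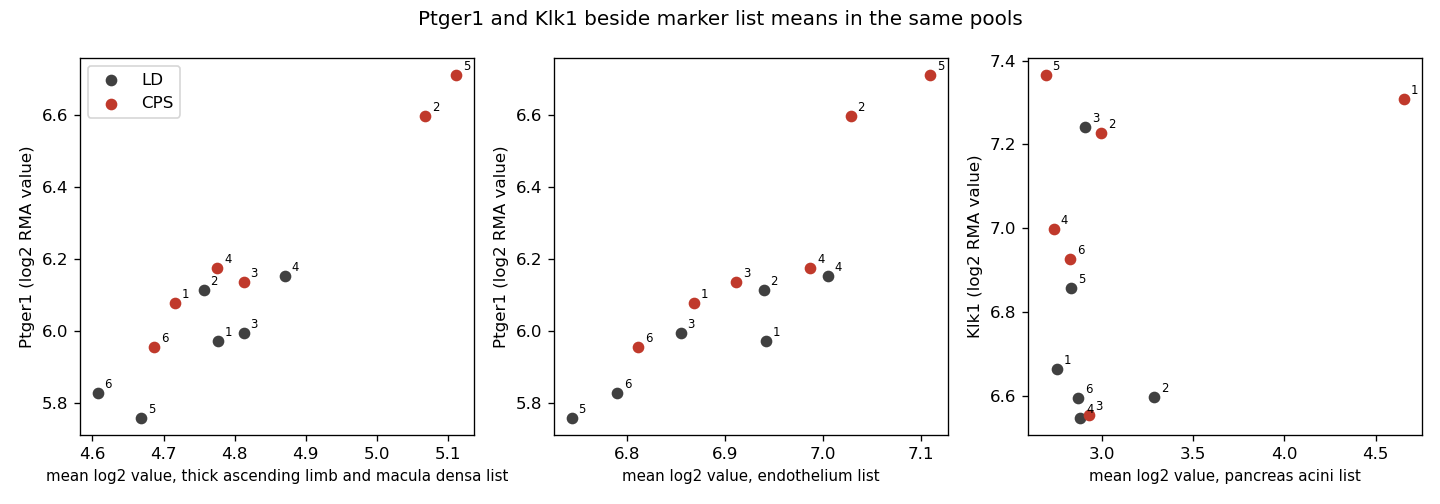
The plots show Ptger1 and Klk1 (log2 value, y axis) against the mean log2 value of marker lists (x axis) in the same 12 pools, coloured by group and labelled by replicate. Ptger1 and the thick ascending limb and macula densa mean are both highest in CPS replicates 5 and 2, with r = 0.95. In the plot of Klk1, CPS replicate 1 stands apart by its pancreas acini mean of 4.66, and r is 0.30 over the 12 pools.

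The prostanoid receptors were called in both directions. Of 8 measured (9 listed), Ptger1 was higher and Tbxa2r lower, against 4.72% of named genes called, and the median difference was -0.07. Tbxa2r, the thromboxane receptor of vascular smooth muscle and platelets, had a lowest, median and highest value of 5.23, 5.46 and 5.49 in LD and 4.57, 5.22 and 5.36 in CPS. It fell by 0.28 (SE 0.12, limma p of 0.0429, exact permutation p of 0.0130), with 3 CPS pools under every LD pool. Without CPS replicate 6 the difference was -0.16, and 7 of the 12 fits without a pool lost the call. It was also lost with arrays centred on their median (-0.24, limma p of 0.124) and with the methods' test beside limma (p of 0.0516). Ptger3 and Ptger4, the EP3 and EP4 receptors, differed by -0.03 and 0.04 with exact permutation p of 0.717 and 0.604, and Ptger3 changes sign when arrays are centred. Ptger2 was not analysed here.

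Of 7 measured genes in the list of prostaglandin transport and breakdown (8 listed), 1 was called, against 4.72% of named genes. It was Ptgfrn, which is neither a carrier nor a breakdown enzyme, and none of the carriers and enzymes measured was called. Ptgfrn, which encodes a negative regulator of the prostaglandin F receptor, was higher by 0.26 (7.23 ± 0.16 in LD and 7.50 ± 0.16 in CPS, limma p of 0.0178 and exact permutation p of 0.0238), with 4 CPS pools above every LD pool, and kept its call whichever pool was left out. Hpgd, which inactivates prostaglandins, and Slco2a1, their uptake carrier, differed by 0.20 and 0.24 and did not pass, with exact permutation p of 0.349 and 0.195.

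**Figure D3:**
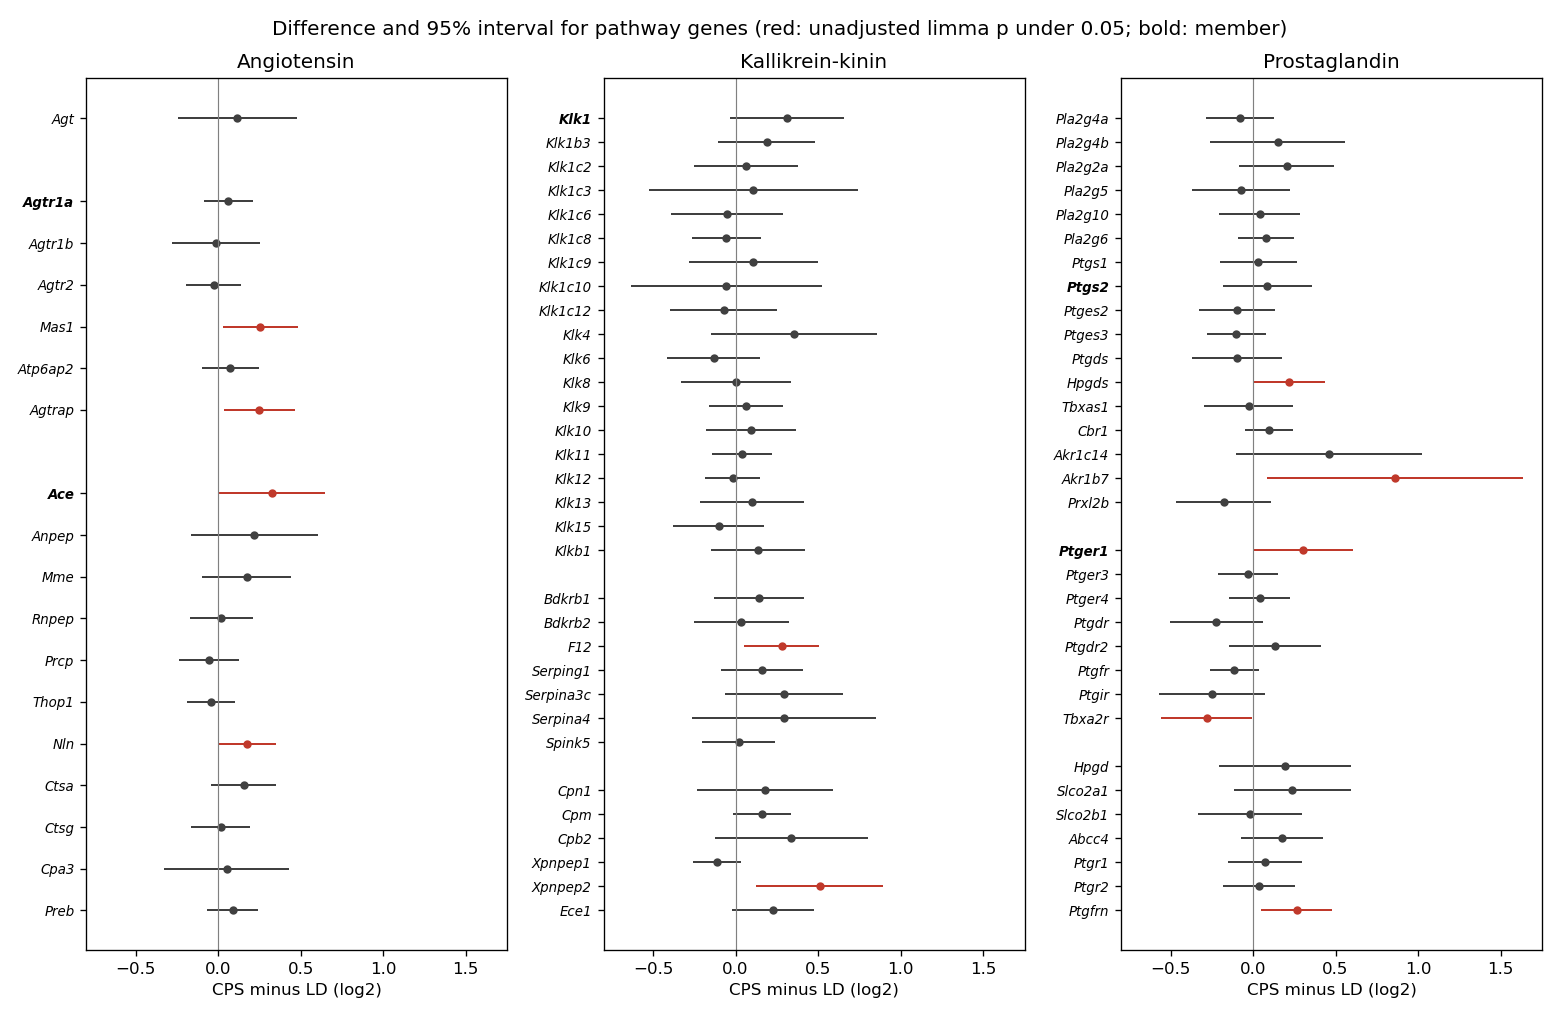
Each point is the CPS minus LD difference (log2) of a measured pathway gene and each bar its 95% interval, red where the unadjusted limma p was under 0.05 and bold for members. Of 82 genes 10 were higher and 1, Tbxa2r, was lower, and Akr1b7 has the largest difference, 0.86.

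Over all the lists, 82 of 104 genes were measured, 10 were called higher and 1 lower, 13.4% against 4.72% of all named genes. Without the members it was 8 higher and 1 lower of 77, or 11.7%. The share of named genes called varied with level and test. Where only clusters at or above the median level were tested, 577 of 9408 named genes and 8 pathway genes were called. By the one-way test of the methods 862 of 14557 named genes and 9 pathway genes were called. The median difference of the 82 genes was 0.08 and 57 were above 0, against a median of 0.01 and 7799 above 0 over the 14557 named genes. Of the 82, 18 were at or under the dim level. The count of 11 called genes was 3 without LD replicate 6 and CPS replicate 2, the pools with the most liver signal, 4 with liver and adrenal means as covariates and 5 with the thick ascending limb mean as covariate. The 4 include only Ptgfrn of the 11. All the others missed the threshold with the liver and adrenal covariates. The difference went from 0.33 to 0.22 in Ace and from 0.31 to 0.38 in Ptger1. It went from 0.25 to 0.24 in Agtrap, from 0.25 to 0.21 in Mas1 and from -0.28 to -0.23 in Tbxa2r. The part of those tissues in these differences was not tested further. Akr1b7 went from 0.86 to 0.02, but it is itself part of the adrenal mean, so its change cannot be compared with theirs. Without those pools Xpnpep2, Hpgds and Tbxa2r kept their calls, and Mas1, Nln, Xpnpep2, Akr1b7 and Tbxa2r kept theirs with the thick ascending limb covariate. Leaving out 1 pool gave 5 to 12, with 5 without CPS replicate 2, 6 without LD replicate 1 or 5 and 7 without LD replicate 2 or 3. The genes in these lists were measured in the same pools and are not independent of each other.

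**Figure D4:**
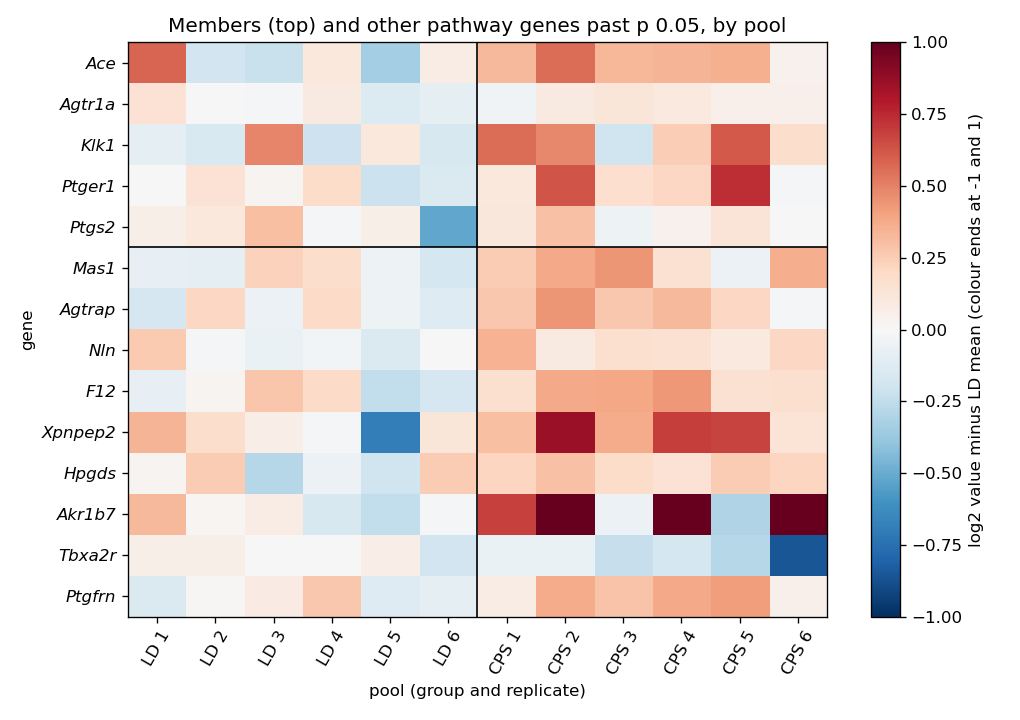
The map shows, for the 5 members (above the line) and the other pathway genes past the unadjusted limma p of 0.05, the log2 value of each pool (columns, LD 1 to 6 then CPS 1 to 6) minus the LD mean, with colours ending at -1 and 1. Ace is highest in LD replicate 1, Ptger1 in CPS replicates 2 and 5, and Akr1b7 differs most between CPS pools, from 1.94 to 4.38.

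The members followed each other only in some pairs, with r from -0.13 for Agtr1a with Klk1 to 0.72 for Ace with Agtr1a. Of 10 pairs, Ace and Agtr1a had r = 0.72 over the 12 pools (permutation p of 0.00835, 0.0795 adjusted) and rho = 0.78 (permutation p of 0.00447, 0.0224 adjusted), and r was 0.54 without the 2 pools farthest out, 0.77 within LD and 0.24 within CPS. Klk1 and Ptgs2 had r = 0.60 (permutation p of 0.0159, 0.0795 adjusted) and rho = 0.78 (permutation p of 0.00422, 0.0224 adjusted), with r of 0.65 without the 2 farthest, 0.59 within LD and 0.76 within CPS. Neither r passed after adjustment while both rho did. Agtr1a went with the means of several kidney cell types, and none of these relations passed after adjustment over 80. For the distal and connecting tubule, Klk1 was left out of the 5 measured genes (8 listed). With the mean of the others r was 0.74 (permutation p of 0.0063, 0.0711 adjusted) and rho was 0.73 (permutation p of 0.01, 0.1 adjusted). Here r was 0.68 without the 2 farthest, 0.80 in LD and 0.83 in CPS. With 9 of 14 proximal tubule genes r was 0.73 (permutation p of 0.00711, 0.0711 adjusted) and rho was 0.76 (permutation p of 0.00629, 0.0886 adjusted), with r of 0.64 without the 2 farthest, 0.85 in LD and 0.70 in CPS. For endothelium and collecting duct r was 0.69 and 0.68 (permutation p of 0.0135 and 0.0161, 0.12 and 0.129 adjusted). The rho values were 0.68 and 0.64 (permutation p of 0.0181 and 0.0303, 0.155 and 0.201 adjusted). For endothelium r was 0.90 within LD and 0.30 within CPS, and for collecting duct it was 0.71 within each group. Ace also had relations of this size, none passing after adjustment. With 4 of 9 red blood cell genes r was 0.75 (permutation p of 0.00597, 0.0711 adjusted) and rho was 0.62 (permutation p of 0.0353, 0.202 adjusted). With endothelium and collecting duct rho was 0.74 each (permutation p of 0.00752 and 0.00775, 0.0886 adjusted for both), and r was 0.61 and 0.63 (0.181 adjusted for both).

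The named genes whose values, after taking out the group means, were most like each member over the 12 pools were Kcns3 (r = 0.92), Car2 (0.91) and Mid1ip1 (0.88) for Ace. For Agtr1a they were Dnajc22 (0.91), Dcaf6 (0.89) and Cav2 (0.88). For Klk1 they were Plp2l1, Tmem248 and Pold1 (0.82 each). Ptger1 was most like Bicc1 (0.95), Maco1 (0.94) and Pld4 (0.92), and Ptgs2 like Dhrs1 (0.94), Kdsr (0.92) and Manea (0.90). These are the highest of all genes at or above the median level, share their pools, and are given as a description with no test.

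**Figure D5:**
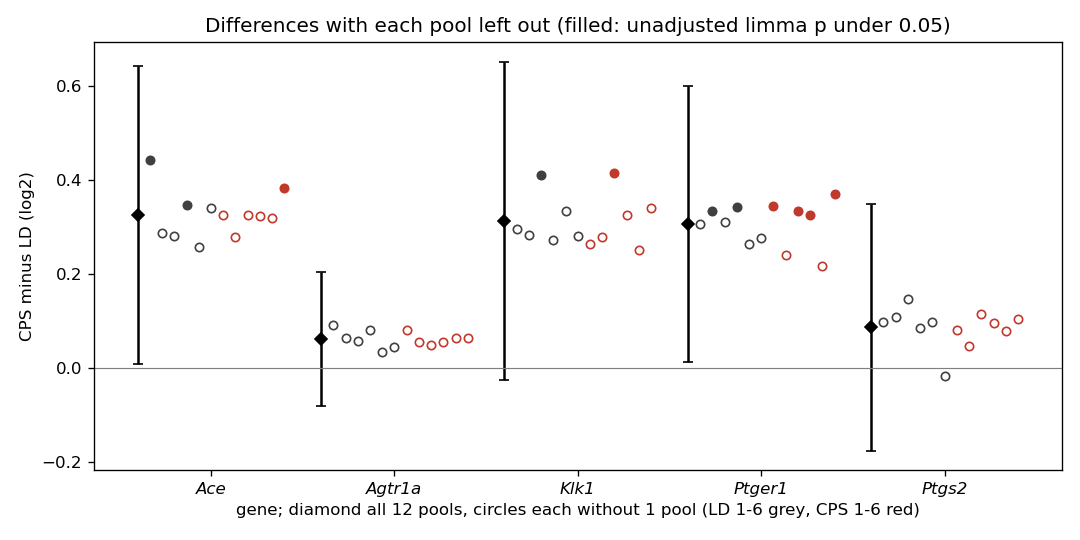
Diamonds show the CPS minus LD difference (log2) of each member over all 12 pools and circles the difference with 1 pool left out, filled where the unadjusted limma p was under 0.05. Ace ranges from 0.26 to 0.44, Klk1 from 0.25 to 0.41, Ptger1 from 0.22 to 0.37 and Agtr1a from 0.03 to 0.09, while Ptgs2 crosses 0, from -0.02 to 0.15.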

How the data were processed

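Total RNA of fetal kidney pools, 6 LD and 6 CPS, was measured on Affymetrix Rat Gene 2.1 ST arrays. The table the authors deposited holds log2 values from RMA (Robust Multiarray Average). RMA subtracts background, gives all arrays 1 distribution and joins the probes of a transcript cluster into 1 value, so that small differences in total RNA are not kept. Per the submitters' processing notes it came from the Affymetrix Expression Console (version not given in the sources used here). Detection calls and scans were not used here. The table had 0 unmapped columns. The number of arrays limits the precision.

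Of 36685 clusters, the platform annotation gave 1 gene symbol to 14824, several to 829 and none to 21032. By Entrez number 14670 names matched RefSeq and 154 did not. Of several clusters for 1 gene, that of highest mean was kept, which left 14557 genes. All clusters were fitted with lmFit and eBayes of limma 3.58.1 in R 4.3.3, without covariates, two-sided, called at an unadjusted p under 0.05 and adjusted by Benjamini-Hochberg over all clusters. An exact permutation test of single genes ran over 924 relabelings (smallest p 0.00216), and correlations were tested by 100000 permutations. Similar level means a mean within 0.5 log2. Pools are read as of different mothers, and p-values measure only the spread between them. No batch or scan date was used. The fit was tested on simulated data. Some genes are not reported here.

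Members, pathway lists and marker lists were chosen with earlier results of these data known. Named genes are the members, pathway genes called, 21 direct partners and the 3 genes most like each member. The fits were repeated with the one-way test of the methods, the replicate number as a block, eBayes with trend and robust spread, array weights, arrays centred on their median, a new quantile normalization, clusters under the median level removed, and each array left out. Marker list means as covariates, and a fit that left out the LD and the CPS array with the most liver signal, were chosen after seeing the data.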

Additional observations from a re-analysis of the deposited data

Results flagged for a closer look

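Among 56 groups of 6 pools of named genes, 6 held a pool whose gap to the nearest other pool was wide for the range of its group by Dixon's test, where chance gives about 1 in 20, or 2.8. None was a member. In LD, Nln was highest in replicate 1 at 6.81, against 6.40 to 6.54 in the others. Xpnpep2 was lowest in LD replicate 5 at 2.92, with the others from 3.61 to 3.96. Tbxa2r, the thromboxane receptor, was lowest in replicate 6 of both groups, at 5.23 in LD (others from 5.42 to 5.49) and 4.57 in CPS (others from 5.14 to 5.36). Agtr1b was highest in CPS replicate 5 at 5.07, the others lying from 4.60 to 4.75. Agtr2 was lowest in CPS replicate 3 at 8.29, the others lying from 8.52 to 8.55.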

How the results depend on the processing

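Agtr1a was called under no alternative, and its difference stayed above 0. The Ace difference of 0.33 missed the threshold with the methods' test, the replicate block and the trend with robust spread (limma or test p of 0.0583, 0.0685 and 0.0662), and as 0.22, 0.29 and 0.25 with the liver and adrenal, proximal tubule and thick ascending limb covariates, and as 0.29 without the arrays of highest liver mean. Ptger1 at 0.31 missed it with the methods' test and the block (p of 0.0538 and 0.0574), and as 0.38, 0.25, 0.13 and 0.21 with the same covariates and arrays left out. Klk1 passed, at 0.35, with centred arrays. Ptgs2 turned to -0.057 without the highest liver arrays. Leaving out 1 array gave 0.26 to 0.44 for Ace, 0.25 to 0.41 for Klk1, 0.22 to 0.37 for Ptger1, -0.017 to 0.15 for Ptgs2 and 5 to 12 called pathway genes, which were 4, 5 and 3 with the liver and adrenal or thick ascending limb covariates and without the highest liver arrays. The cause was not tested. Clusters called went from 1946 of 36685 to 1223 of 18343 where only clusters at or above the median level were tested. With 1 array left out 1639 to 2555 were called. With arrays centred, 1151 were higher and 672 lower, against 872 and 1074, and with quantile normalization 1097 and 911.

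The replicate block took the calls of Ace, Ptger1 and Hpgds among named genes and changed no other. It called 1984 clusters and 10 pathway genes. Deviations of LD and CPS pools of the same number correlated from -0.06 to 0.05, so the numbers do not pair them.

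Genes that were never called changed sign, the cause not tested. Agt turned to -0.048 and Klkb1 to -0.00080 with liver and adrenal covariates. Agtr1b turned to 0.014 with array weights, 0.025 with centring, 0.029 with those covariates and 0.043 without the highest liver arrays, and Agtr2 to 0.010 with centring. Ptger3 turned to 0.0087 with centring, 0.043 with those covariates and 0.016 without those arrays. Ptgs1 turned to -0.012 and -0.061 with proximal tubule and thick ascending limb covariates, and -0.035 without those arrays. With 1 array left out the ranges were -0.079 to 0.042 for Agtr1b, -0.059 to 0.013 for Agtr2, -0.036 to 0.11 for Bdkrb2, -0.072 to 0.0024 for Ptger3 and -0.012 to 0.10 for Ptgs1. Ace has no value at or above the median level, since its mean lies under 3.32, and no member has another cluster to use.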

Other observations

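Pappa2, a protease of insulin-like growth factor binding proteins known in kidney from the macula densa, was outside the lists of the angiotensin, kinin and prostaglandin systems and was chosen after its values were seen. It was higher in CPS, with a lowest, median and highest value of 4.03, 4.33 and 4.60 in LD and 4.44, 4.72 and 5.08 in CPS. The difference was 0.42 (SE 0.12, limma p of 0.00482, exact permutation p of 0.00866), with 5 of 6 CPS pools above every LD pool, and its adjusted limma p was not under 0.05, like that of every cluster.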
